A study of Populus alba x Populus glandulosa with 9 samples.

Results

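The 200 genes described here are the least variable ones in the stem of 84K poplar at moderate expression. They were picked from the deposited FPKM table (fragments scaled to gene length and to the library total). All genes with a mean between 10 and 100 FPKM over the 9 libraries were ranked by their coefficient of variation (CV), which is the SD of FPKM over the 9 libraries divided by the mean. The level window held 17001 of the 85755 gene identifiers, and the 200 with the lowest CV were taken. The 9 libraries came from wild-type 84K poplar, bred from Populus alba and Populus glandulosa, aged 6 months and about 200 cm tall. They covered 3 positions with 3 libraries each: internodes 2 to 3 (top), internodes 9 to 10 (middle) and internodes 14 to 15 (bottom). No treatment or second genotype was part of the design. The labels do not say whether the libraries of a position came from separate plants, so the spread between them may be partly technical.

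Genes with a steady relative level are used as internal standards when transcript abundance is compared between tissues, for example in quantitative PCR. Stems are a demanding tissue for such standards. A young internode near the apex is elongating and holds mostly primary tissues, whereas internodes further down have a vascular cambium that lays down secondary xylem (wood) and phloem. A constant FPKM means that a gene has a constant share of the sequenced fragments. In whole internodes, fewer cells of a type and less RNA per cell cannot be told apart, and FPKM does not show whether the amount of a transcript per cell is constant. The files give identifiers without gene names, products or positions, so no function is given for any gene, the usual reference genes (actin, ubiquitin, tubulin and others) could not be looked up, and the stem tissue could not be checked against marker genes. A, G and Un in an identifier are used only as classes.

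Since the CV over these 9 libraries chose the genes, their low spread is a description and not a finding. The chosen genes had CVs of 3.54% to 6.93%, with a median of 6.20%. The other 16801 genes in the window had a median of 22.2%, with quartiles of 15.0% and 36.1%. The ratio of the highest to the lowest of the 9 libraries was 1.10 to 1.28 among the 200 genes, with a median of 1.20, and was under 1.25 in 185 of them. Among the other window genes the median ratio was 1.95, taken over the 16768 with a value above 0 in every library. There was no gap at the limit. The last genes inside, Pop_G19G009529, Pop_G07G031802 and Pop_G10G007779, had CVs of 6.926%, 6.929% and 6.930%, and the first outside, Pop_G17G031474, Pop_A09G026584 and Pop_A03G049867, had 6.942%, 6.944% and 6.962%.

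**Figure D1:**
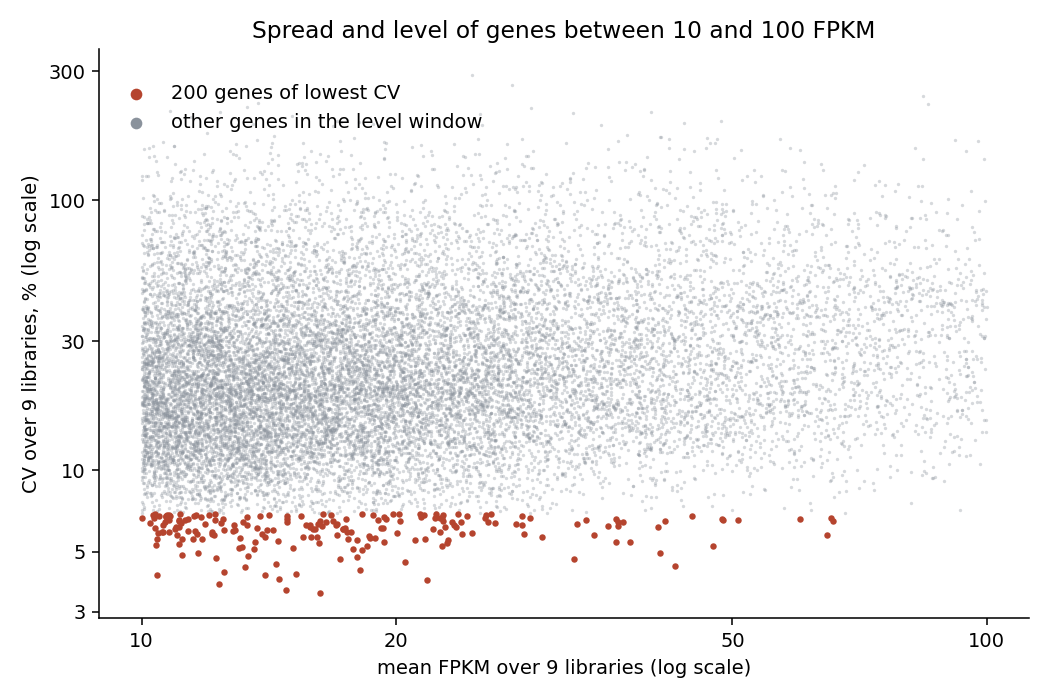
Coefficient of variation of FPKM over the 9 libraries (y axis, %, log scale) against mean FPKM (x axis, log scale) for the genes between 10 and 100 FPKM, with the 200 chosen genes in red and the other 16801 in grey. The red points form the lower edge of one continuous cloud, between 3.54% and 6.93%, and thin out above 50 FPKM.

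The steadiest gene, Pop_G03G013832, had a CV of 3.54%. Its FPKM was 16.5, 16.7 and 16.9 at the top, 16.1, 16.3 and 16.4 at the middle and 16.8, 15.4 and 15.3 at the bottom. The top libraries lay above the middle libraries by a small margin, and the bottom libraries overlapped both.

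Pop_G04G060061, with a CV of 3.62%, had 15.0, 14.8 and 14.6 FPKM at the top, 16.0, 14.7 and 14.1 at the middle and 15.1, 14.4 and 14.7 at the bottom. Both its highest and its lowest value were middle libraries. Pop_A01G032217, at 3.82%, had 13.0, 11.8 and 12.0 FPKM at the top, 12.7, 12.8 and 12.0 at the middle and 12.8, 11.9 and 12.2 at the bottom. It had the smallest ratio of highest to lowest library among the 200 genes, 1.103.

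Pop_A10G046970 was at 22.0, 23.4 and 21.9 FPKM at the top, 21.4, 21.1 and 21.9 at the middle and 21.1, 22.5 and 20.6 at the bottom, a CV of 3.92%. Pop_A04G010844 was at 13.6, 15.5 and 14.3 FPKM at the top, 14.5, 15.3 and 14.3 at the middle and 14.9, 14.4 and 14.3 at the bottom, a CV of 3.98%. In Pop_A04G010844 the top libraries alone spanned the full range, and the bottom libraries lay closest together.

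The next of the 10 steadiest genes were Pop_G01G060415 (mean 14.01 FPKM, range 13.4 to 14.9), Pop_A01G059715 (mean 10.42, range 9.86 to 11.03) and Pop_G14G044346 (mean 15.2, range 14.3 to 16.3). The last of them were Pop_A14G000046 (mean 12.5, range 11.6 to 13.5) and Pop_G01G016553 (mean 18.1, range 16.8 to 19.03). Their CVs were 4.10% to 4.27%. None of these 5 genes had a position that was separate from both of the others.

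**Figure D2:**
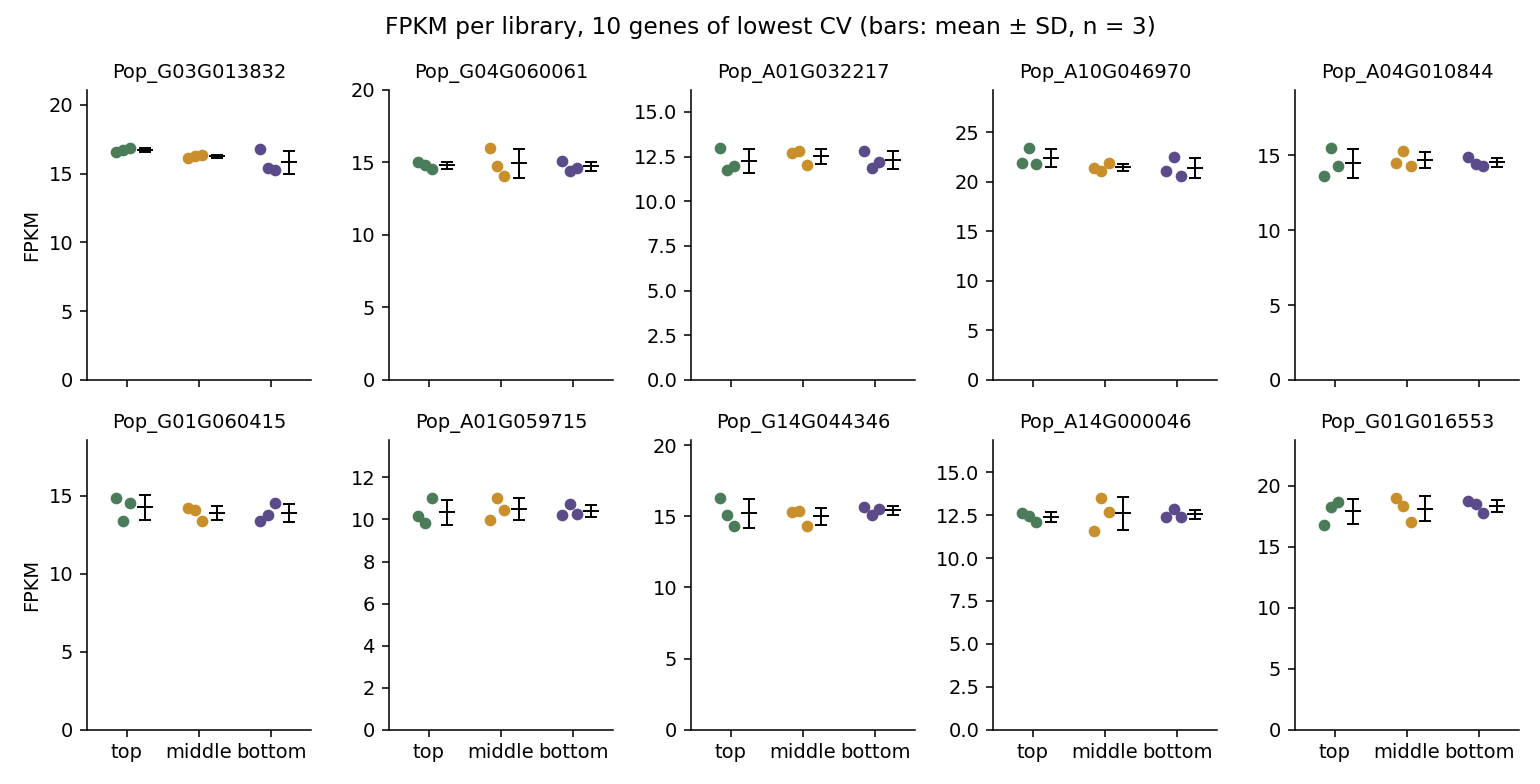
FPKM (y axis, from 0) in each library of the top, middle and bottom position for the 10 genes of lowest CV; dots are libraries and bars are the mean ± SD of 3. In every panel the 3 positions lie at nearly the same height, as for Pop_G03G013832, whose 9 values run from 15.3 to 16.9 FPKM.

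The 200 genes leaned to the lower part of the level window. Their mean FPKM ran from 10.02 to 65.8 with a median of 16.3, against a median of 18.3 for the other window genes. Of the genes at 10 to 20 FPKM, 1.41% were chosen (135 of 9552), of those at 20 to 50 FPKM 1.03% (60 of 5833), and of those at 50 to 100 FPKM 0.309% (5 of 1616). Above the window the share was lower still: of 942 genes over 100 FPKM, 1 had a CV at or below that of the last chosen gene. Among the 27140 genes at 1 to 10 FPKM, 158 (0.582%) did.

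The most abundant of the 200 was Pop_A08G086441, which was also the shortest, at 393 bases. It had 63.6, 60.8 and 74.4 FPKM at the top, 71.2, 66.2 and 63.5 at the middle and 63.0, 65.1 and 64.8 at the bottom. Its top libraries spread most widely and its bottom libraries least. Pop_A04G010797 followed with 66.3, 69.1 and 67.7 FPKM at the top, 57.6, 59.6 and 68.8 at the middle and 67.1, 69.5 and 62.8 at the bottom, with its 2 lowest values in middle libraries.

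At the lower end of the window, Pop_A17G052602 had 9.89, 9.44 and 9.03 FPKM at the top, 10.8, 9.94 and 10.3 at the middle and 9.38, 10.3 and 10.98 at the bottom. Pop_G05G008326 had 10.6, 10.1 and 10.96 FPKM at the top, 9.45, 9.64 and 9.42 at the middle and 10.01, 10.9 and 11.1 at the bottom. All 3 middle libraries of Pop_G05G008326 lay below all of its top and bottom libraries. Its log2 fold change was -0.17 for middle against top (SE 0.11, adjusted p = 0.293 in edgeR's quasi-likelihood test), which did not pass the threshold of 0.05.

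In some libraries the 200 genes were shifted together, and which libraries these were depended on the scaling. In FPKM as deposited, the median deviation of the 200 from each gene's own mean was -3.29% in middle library 2, -2.56% in middle library 3 and 2.10% in bottom library 1. In the remaining libraries it lay between -0.101% and 1.39%. The number of the 200 genes with their lowest value in a library was 46 in middle library 2 and 40 in middle library 3, against 7 to 30 in the others. Middle libraries 2 and 3 were also those of least depth, with 44403214 and 41434042 counts, where the other 7 held 52383942 to 75217046. Among the other window genes middle library 2 was shifted further down, by a median of -10.17%. Together the 200 genes took 0.730% to 0.766% of the counts of a library. After TMM rescaling of FPKM the lowest median was that of bottom library 3, at -3.95% (lowest value in 44 genes), the highest was 4.01% in top library 2, and middle library 2 was at -0.581% (lowest value in 23 genes). After RLE rescaling, bottom library 3 was at -3.82% (lowest value in 42 genes), and middle library 2 was above the mean, at 2.88% (lowest value in 9 genes). The part of depth in these shifts was not tested.

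**Figure D3:**
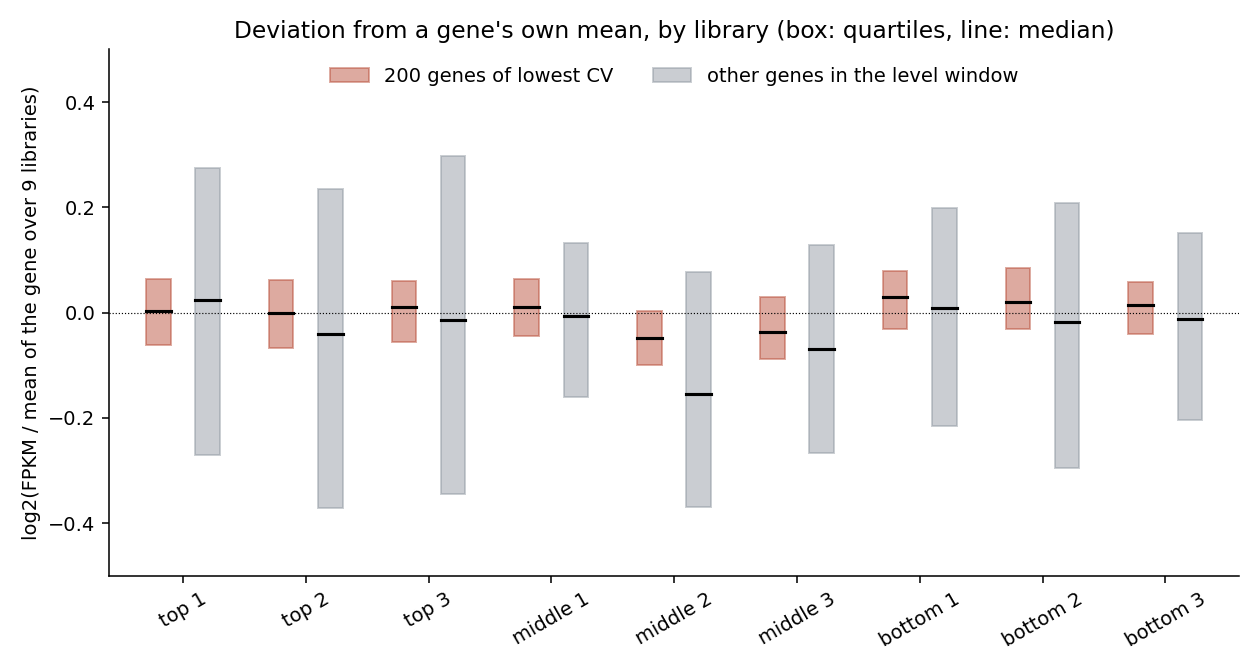
Deviation of FPKM from a gene's own mean over 9 libraries (y axis, log2 ratio, FPKM as deposited) in each library, for the 200 chosen genes (red) and the other genes of the level window (grey); boxes span the quartiles and lines mark medians. The red medians are lowest in middle libraries 2 and 3, at -0.05 and -0.04, and the grey boxes are several times taller.

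How the levels compared between positions was read from an edgeR model of the counts of all 52436 genes tested, in which all 200 genes were kept. None of the 200 was called at an adjusted p under 0.05 in the F test over positions, where 22.1% of all genes tested were called. Likewise, 0 of 200 were called for middle against top (18.6% of all genes), 0 of 200 for bottom against middle (0.811%) and 0 of 200 for bottom against top (27.3%). At an unadjusted edgeR p under 0.05 the counts were 0, 0, 0 and 1 of 200, against 37.1%, 33.8%, 8.18% and 40.9% of all genes. DESeq2 also called 0 of 200 at an adjusted p under 0.05 in each of them, where it called 31.2%, 25.3%, 3.19% and 32.7% of all genes. At an unadjusted DESeq2 p under 0.05 there were 2 of 200 for bottom against top and 0 in the others. The share of all genes at that unadjusted level is not given for DESeq2, so those counts have no reference. The same 9 libraries chose the genes, so nothing about position is read from these counts. The comparisons share libraries as well.

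A missing call does not show equal levels, so the intervals of the fold changes are given as well. They come from the libraries whose CV chose the genes, so their closeness to no change follows from the rule and is a description too. For bottom against top, the fitted log2 fold changes of the 200 genes ran from -0.23 to 0.12, and the median half-width of their 95% intervals was 0.25 on the log2 scale, or 1.19-fold. For all 200 genes the interval lay within 1.5-fold in either direction in each of the 3 contrasts. The same held for 3031 of the other 16801 window genes (18.04%) and for 13.1% of all genes tested. The interval was within 1.25-fold for 90 of the 200 genes in middle against top, 128 in bottom against middle and 99 in bottom against top, and for 48 genes in all 3 contrasts, against 1.18%, 2.98%, 1.12% and 0.305% of all genes tested. At 1.2-fold only 2 genes had all 3 intervals inside the limit. The intervals of edgeR borrow spread from other genes, so for genes chosen for a low spread they are wider than the libraries of the gene alone would give.

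The most positive fold changes for bottom against top were those of Pop_A03G019701 and Pop_G15G048719. Pop_A03G019701 had 11.73, 11.74 and 11.83 FPKM in the bottom, against 10.2, 10.9 and 9.76 in the top, with 10.9, 11.1 and 11.5 in the middle. The bottom libraries lay above all others and very close together. The log2 fold change was 0.12 (SE 0.11, edgeR adjusted p = 0.409). Pop_G15G048719 had 22.4, 24.6 and 21.6 FPKM in the bottom, against 19.7, 21.2 and 19.96 in the top, also without overlap, and a log2 fold change of 0.10 (SE 0.12, edgeR adjusted p = 0.551).

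The most negative were Pop_A18G013004 and Pop_A07G085264. Pop_A18G013004 had 9.86, 9.65 and 10.08 FPKM in the bottom, against 10.97, 11.3 and 10.7 in the top. Its log2 fold change was -0.23 (SE 0.11, edgeR adjusted p = 0.150). Pop_A07G085264 had 10.9, 10.1 and 10.8 FPKM in the bottom, against 11.5, 11.8 and 12.1 in the top, a log2 fold change of -0.23 (SE 0.10). It was the gene with an unadjusted edgeR p under 0.05 (0.0496), and its adjusted p was 0.122; under the other 4 scalings tried the unadjusted p was 0.0613 to 0.178. The groups did not overlap in either gene, and in no case was the fold change past the threshold. Under those scalings these 4 genes kept the signs of their fold changes, but the sizes moved: with library totals alone the log2 fold change was 0.20 for Pop_A03G019701, 0.17 for Pop_G15G048719, -0.16 for Pop_A18G013004 and -0.15 for Pop_A07G085264, with edgeR adjusted p of 0.182 to 0.336.

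The FPKM of all bottom libraries lay above that of all top libraries in 22 of the 200 genes (24.9% of all genes tested) and below it in 13 (22.0%). Counted the same way, the bottom was above the middle in 26 genes (8.42% of all genes) and below it in 2 (6.27%). The middle was above the top in 8 genes (17.9%) and below it in 20 (18.6%). The count with the bottom above the middle runs in the same direction as the shift of middle libraries 2 and 3 in FPKM as deposited, whose part in it was not tested. In FPKM as deposited, the bottom mean was above the middle mean in 142 of the 200 genes and above the top mean in 123. After TMM scaling, 95 and 57 of the 200 had a positive fitted fold change in those comparisons. The median log2 fold change of the 200 for bottom against top was -0.05 under TMM and -0.03 under RLE size factors, and it was positive, at 0.01 and 0.03, under upper quartile scaling and library totals.

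The spread within the 200 genes was small enough for read counting to make up a sizeable part of it. The 200 genes had a mean of 221.8 to 4084 read pairs per library, with a median of 912.7, against a median of 707 in the other window genes. At these depths counting alone would give a median CV of 3.36% in the 200 genes and 4.02% in the other window genes with a count in every library. Counting made up a median of 32.7% of the variance of the 200 genes and 3.25% of that of the other window genes. Such estimates cover counting error only, since read pairs are not independent molecules after PCR. In 6 genes the observed CV was at or below the counting CV, and in 45 counting gave at least 50% of the variance. The rule chose the 200 for a low observed CV, which raises the share of counting. These shares and counts are therefore a description.

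The gene with the least variance beyond counting was Pop_A04G018399, with 624 bases and a mean of 257.6 read pairs. It had 16.1, 15.1 and 14.9 FPKM at the top, 16.3, 15.1 and 14.2 at the middle and 14.0, 14.8 and 15.7 at the bottom. Its CV of 5.19% was below the 6.33% that counting alone would give. Pop_G08G082270, the second shortest at 447 bases, had a CV of 5.52% against a counting CV of 6.06%, with values of 20.6 to 24.5 FPKM.

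At the other end stood Pop_A11G086293, the longest of the 200 genes at 5765 bases, with a mean of 4084 read pairs. It had 25.1, 28.5 and 23.2 FPKM at the top, 24.6, 28.1 and 24.4 at the middle and 27.0, 26.7 and 25.6 at the bottom. Counting would give a CV of 1.59%, and 6.91% was observed. Its highest and lowest values were both top libraries. Pop_G12G073625, with 3880 bases, was similar, at 25.7, 30.1 and 29.0 FPKM at the top, 26.9, 27.9 and 30.9 at the middle and 26.3, 26.9 and 30.3 at the bottom, with a counting CV of 1.86% and an observed CV of 6.79%. The second longest gene, Pop_A12G019228, with 4960 bases, ran from 27.8 to 31.8 FPKM with a CV of 5.67%. For such well-covered genes nearly all of the remaining spread lay between libraries and not in counting.

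Gene length, which the rule did not use, differed between the 200 genes and the rest. The 200 genes had a median length of 1934.5 bases, with quartiles of 1407 and 2678 bases, against 1335 bases with quartiles of 825 and 1995 in the other window genes. Of the shortest 25% of the window genes, up to 829 bases, 0.400% of genes were chosen (17 of 4251), and of the longest 25%, over 2004 bases, 2.21% (94 of 4245). At equal FPKM a longer gene has more reads. The median CV in the window was 25.9% in the shortest 25% and 19.3% in the longest, and the median counting CV was 6.14% and 3.02%. By read pairs, in steps of 25% of the window from few to many, the median CV was 24.4%, 20.3%, 20.5% and 23.2%, so it was higher again in the genes with most reads, while the median counting CV fell to 2.61% there. Of the genes with fewest reads (the lowest 25%), 0.353% were chosen, and of those in the 3 steps above 1.29% to 1.67%. When the counting variance was subtracted before ranking, which by construction favours genes with few reads, 133 of the 200 genes were chosen again. The genes then chosen had a median length of 1487.5 bases and a median of 618.5 read pairs, below the 709.3 of the whole window. The part of read number in the difference in length was not tested. Lengths were whole multiples of 3, as in models holding coding sequence alone, in 56.0% of the 200 genes and in 63.7% of the window.

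**Figure D4:**
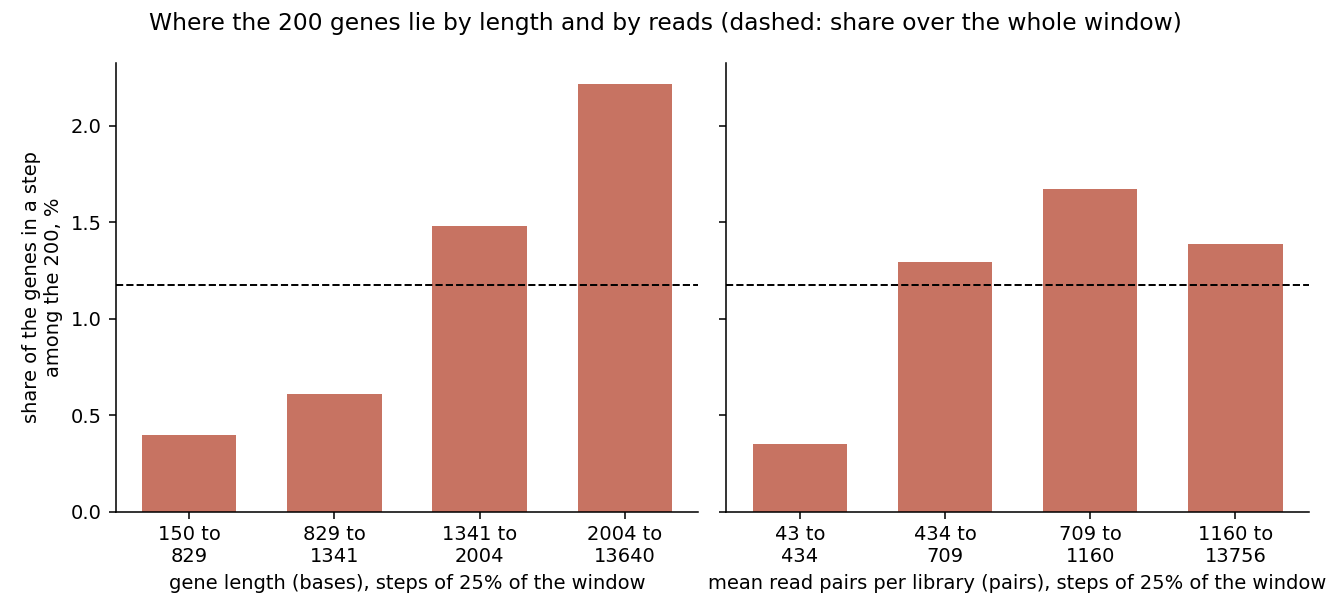
Share of window genes that belong to the 200 (y axis, %, from 0) in steps of 25% of the window by gene length (left, bases) and by mean read pairs per library (right). The share is 0.400% in the shortest and 2.21% in the longest 25%; the dashed line is the share over the whole window.

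By identifier class, 109 of the 200 genes were A, 89 were G and 2 were Un. That is 1.28% of the class A genes in the window (8530), 1.08% of class G (8236) and 0.851% of class Un (235). The 2-digit number after A or G ran from 1 to 19, and each number held between 2 and 24 of the 200 genes. The highest share was for number 12, with 14 of 660 window genes (2.12%), and the lowest for number 15, with 2 of 583 (0.343%).

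Of the summed squares of FPKM around a gene's mean, the part lying between positions had a median of 27.9% in the 200 genes and 53.2% in the other window genes. The mean of this part was 30.7% in the 200 genes and 52.1% in the other window genes. With no difference between positions the mean would be 25% (2 of 8 degrees of freedom), so the mean of the 200 lay above that. A median is not to be set against this value. Selection for a low total favours genes with little between positions, so this too is a description. The part still varied widely within the 200, from 0.325% to 83.8%. By the order of their position means, the largest group was bottom above top above middle, with 58 genes (29.0%), an order found in 9.28% of the other window genes. The order bottom above middle above top was found in 47 genes (23.5%), against 32.3% of the others. Both orders refer to FPKM as deposited and carry the library shifts given above.

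Whether a gene chosen for steadiness stays steady in other libraries was looked at by choosing again with some libraries left out. With replicate number 1, 2 or 3 left out of all positions, 200 genes were chosen from the remaining 6 libraries and then measured in the 3 left out, 1 per position. In those, their median CV was 8.42%, 11.7% and 9.84%, against 17.985%, 24.3% and 21.8% for the other window genes. In the libraries used to choose, it was 5.31%, 4.63% and 4.79%. The chosen genes were thus steadier than the rest in libraries that took no part in the choice. Their median CV was 1.59 to 2.53 times as high there as in the libraries that did. These ratios set a CV over 3 libraries against one over 6, so they are only a rough measure. The libraries left out belong to the same series and positions, and the labels do not say whether they came from separate plants. They are therefore no independent check of steadiness. Of the 200 genes of the full rule, 91, 75 and 87 were chosen again.

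Leaving out the top libraries changed the list most. When genes were chosen in the middle and bottom libraries alone, 41 of the 200 were chosen again. In the top, 18 of those chosen then differed at least 1.5-fold from their mean over the other 6 libraries, 12 of them lower and 6 higher, with ratios from 0.577 to 2.14. Among the other window genes 31.4% differed that much. When the middle or the bottom libraries were left out, 0 of the chosen genes differed at least 1.5-fold in them, against 11.8% and 21.2% of the other window genes, and 78 and 91 of the 200 were chosen again. A list of steady genes drawn from the middle and bottom alone therefore held genes that were not steady towards the top.

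**Figure D5:**
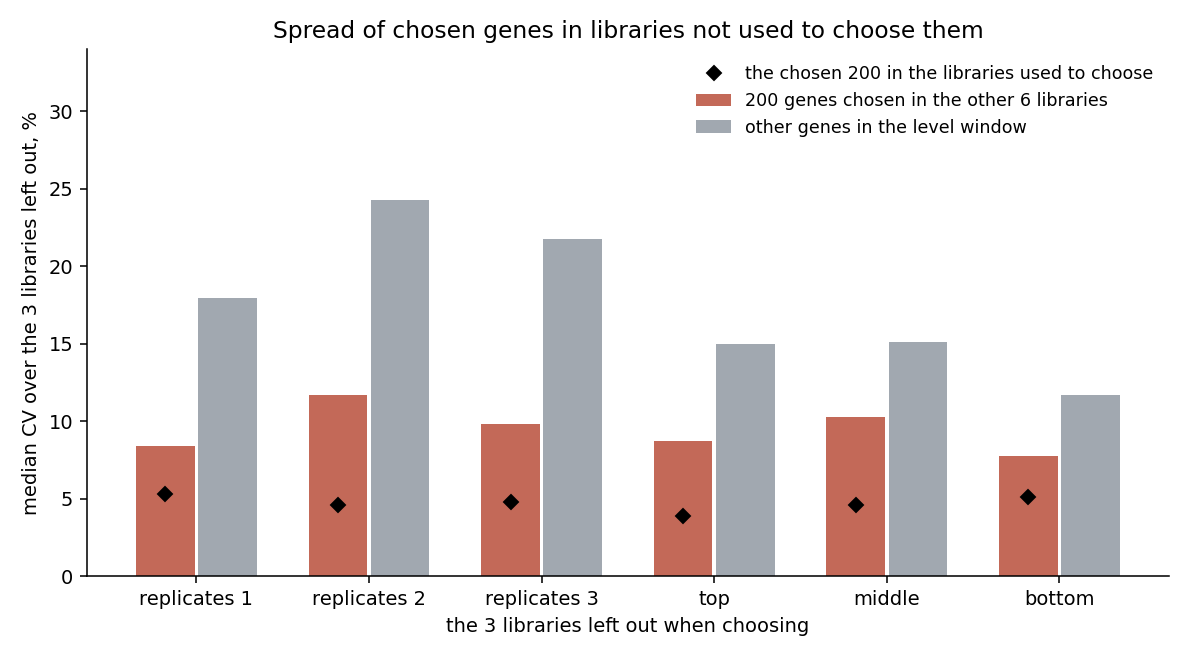
Median CV (y axis, %, from 0) over the 3 libraries left out, for the 200 genes chosen in the other 6 libraries (red bars) and for the other genes of the window (grey bars), with the chosen genes' CV in the libraries used to choose as diamonds. The red bars lie between 7.74% and 11.7%, above every diamond and below their grey neighbours. For replicate numbers, the 3 libraries left out are from different positions. For top, middle and bottom, the bars are CVs within a single position, and the diamonds are CVs over 6 libraries of the other positions. Those bars do not measure steadiness along the stem.

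Among the 200, 109 genes were also chosen after rescaling FPKM by TMM, RLE and upper quartile factors, each in turn. Leaving out each of the 9 libraries in turn kept 87 genes in all 9 lists, and 63 genes passed both. Of these 63, 17 were also chosen without each replicate number in turn. The 17 included 9 of the 10 steadiest genes, and the exception was Pop_A14G000046. All these lists reuse libraries whose CV chose the genes, so genes of lowest CV are favoured by construction. The counts describe the list and are not independent support for any gene. Steadiness between position means is a different property: ranking by the range of the 3 position means returned 33 of the 200, and the genes it chose had a median CV of 10.1% over the libraries.

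Scaling the libraries by the summed counts of the 200 genes was tried as an alternative to TMM for all genes. It is circular for the 200 themselves. A constant FPKM is a constant share of the library total, so by construction this scaling lies near scaling by library totals. Its balance of rises and falls over all genes is therefore not separate evidence from steady genes. Over all genes tested, scaling by the 200 gave 4798 genes higher and 4723 lower for middle against top, where TMM gave 4301 and 5478 and library totals alone gave 4475 and 4827. For bottom against top it gave 7093 higher and 7066 lower, against 6366 and 7932 with TMM and 7329 and 6673 with library totals. For bottom against middle, 7 were higher and 430 lower, against 8 and 417 with TMM. The balance of rises and falls against the top thus moved with the scaling, by less than 10 percentage points, and the calls for bottom against middle stayed one-sided.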

How the data were processed

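Poly(A) RNA from stem internodes was sequenced in 9 libraries. The submitters' processing notes name Trimmomatic 0.36 and HISAT2; counting program, build, annotation and strandedness are not given in the sources used. Counts in the deposited table are whole numbers for 85755 identifiers; of 503602 entries above 0, 0 were odd, so read pairs are taken as counts divided by 2. Total counts were 41434042 to 75217046 per library. FPKM values were computed by the authors and used as deposited. Gene lengths were found from the ratio of counts to FPKM: with library totals 0.772% to 0.853% above the column sums, 99.7% of window lengths came within 0.1 bases of a whole number. Column names were matched to codes in the titles; 0 columns were left over.

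Members and lists were chosen with earlier results of these data known. The named genes follow a rule: the 10 lowest CVs, the extremes of level, length, bottom-against-top fold change and variance beyond counting, and the genes at the limit. Counts were tested with edgeR 4.0.16 in R 4.3.3 (filterByExpr with minimum count 10 and minimum total count 15, TMM, quasi-likelihood, Benjamini-Hochberg over all genes); standard errors came from fold change and F statistic. The edgeR code and the rule were run on simulated data with planted genes. The planted low-spread genes were set well apart from the rest, whereas the real genes had no gap at the limit. These runs check the code and do not bear on the real list. DESeq2 1.42.0 and limma 3.58.1 on log2(FPKM + 1) were alternatives. Deviations from position means were correlated at 0.112 to 0.270 in all 3 same-numbered pairs of middle and top libraries (-0.188 to 0.038 in the others). Numbers were therefore taken to pair these, though the labels do not say what a number marks. The pairing is uncertain, since top library 1 and bottom library 2, with different numbers, were at 0.160. The main model had no block for the number, and a fit with it was an alternative. Same-numbered pairs with the bottom were at -0.156 to 0.126 and not taken as paired. Libraries of a position differed beyond sampling noise (chi-square per degree of freedom 21.75 to 53.35), so all 9 were kept.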

Additional observations from a re-analysis of the deposited data

How the results depend on the processing

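The count of 0 called genes among the 200 was the same in each of the 4 comparisons under all 22 alternatives (other scalings, filter, tool, pseudocount, halved counts, libraries left out). Genes chosen for low spread in these libraries are unlikely to be called under any of them, so this is a description. The lowest adjusted p of any of the 200 over all settings was 0.103, from DESeq2 for bottom against top. Intervals for bottom against top within 1.5-fold held for 184 to 200 of the 200 when libraries were left out. With the replicate number as a block, 0 of the 200 were called and all 200 intervals stayed within 1.5-fold; the lowest adjusted p of the 200 for middle against top, the comparison in which the numbers were taken to pair libraries, was then 0.206. The list itself depended on the choices made. Of the 200 genes, 132 were chosen again with TMM-rescaled and 129 with RLE-rescaled FPKM, 33 by the range of position means (median CV 10.07%), 133 with counting variance subtracted, 60 in a window of 20 to 50 FPKM (median CV 7.60%), 120 in one of 5 to 200 FPKM and 110 with no window. Without the top, middle or bottom libraries, alternatives added after seeing the data, 41, 78 and 91 were chosen again (median CV 3.91%, 4.60% and 5.16%). Leaving out replicates gave 75 to 162 shared genes and a median CV of 4.63% to 6.23%; the lowest counts for a single library were 122 without middle library 2 and 128 without top library 1. Median length ran from 1487.5 bases (counting variance subtracted) to 2261 bases (no window) over the 28 alternatives. All were within 1 SD over the 200 genes (984.5 bases) of the main median of 1934.5 bases. The 1335 bases of the other window genes lie within that limit too, so it does not show that the difference in length held. Directions among the 200 were not stable: their median log2 fold change for bottom against top was -0.05 under TMM and -0.03 under RLE, but 0.01 under upper quartile scaling and 0.03 under library totals, and for bottom against middle it was -0.0029 under TMM and 0.04 under library totals. Counting alone gave a median CV of 3.36% at a median of 912.7 read pairs, which limits how far steadier genes can be told apart.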
